A study of Salvia miltiorrhiza with 5 samples.

Results

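The degradome library of *S. miltiorrhiza*, a sage grown for the tanshinones of its root, was made from a mixture of root, stem, leaf and flower of field-grown plants in flower. It is 1 of 5 libraries of the study, and the other 4 are small RNA libraries, 1 each from root, stem, leaf and flower. Every pair of miRNA and target transcript listed for the degradome was taken, which gave 82 pairs, and each pair was set beside the small RNA reads of its miRNA. The pairs join 25 miRNA names, out of 488 names in the miRNA table, to 69 target ESTs. No plant was treated, the number of plants is not given in the sources used here, and there was neither a replicate nor a control degradome. Intervals below are therefore exact Poisson intervals at 95% and hold counting error alone. Because the tissues were mixed before sequencing, no site could be given to a tissue.

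In plants a miRNA, bound by an ARGONAUTE protein, pairs along nearly its whole length with a transcript and directs a cut across from its middle. The downstream piece of the cut transcript keeps its poly(A) tail and carries a free phosphate at its new 5′ end, so a library of such ends records where transcripts were cut, but also where they decayed for other reasons. A guided cut is expected between the transcript bases that face bases 10 and 11 of the miRNA. The transcripts here were ESTs, short single reads of cDNA clones, and several ESTs can stand for one gene. CleaveLand gives each pair an alignment score that rises with mismatches. It also gives a category: 0 for a site with the single highest peak of its transcript, 2 for a site above the median but below the highest peak, 3 for a site at or below the median, and 4 for a site with 1 read. A p-value is given with these, and it is not described as adjusted.

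The guides with at least 10 degradome reads at a site were the following, written 5′ to 3′ as in the table, with bases 2 to 8 (the seed) in capitals. They are shown because they carry most of the degradome reads. In a name, L and R count bases lost or gained at the left and right end against the miRBase entry, and ss marks a substituted base.
aly-miR858-5p_L-1R+1_1ss5GA: tTCATTGTctgttcgaccttg
aly-miR319a-5p_L-1R-1_1ss19TG: gAGCTTCCttgagtccagt
mtr-miR2673a_L-1_1ss21AT: cTCTTCCTcttcctcttcctc
han-miR3630-3p_L-2_1ss22TC and vvi-miR3630-3p_L-2_1ss21AT: tGGGAATCtctctgatgctc
PC-5p-434679_3: cCGTCTGCttgcttgcctg
No pair of these guides shared a seed. The miR2673 guide repeated itself with a period of 6 bases over its 21 bases and held nothing but C and T, and it was the single sequence of that kind among the 241 in the miRNA table.

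The 25 names stood for 21 sequences, of which 9 were 21 nt, 4 were 20 nt, 2 were 19 nt and 6 were 18 nt long. The 18 nt class made up 28.6% of the guide sequences and 9.13% of all sequences in the miRNA table. A first base of T, the base preferred by AGO1 in Arabidopsis, opened 14 guide sequences, or 66.7%, against 48.1% in the table. A sequence identical to miRBase was found for 2 names, csi-miR164 and gma-miR396a-5p. A further 20 names differed from their miRBase entry, and 3 were predicted miRNAs of this plant, whose names begin with PC. Shared seeds joined csi-miR164 to lus-miR164a_R-1, gma-miR396a-5p to smo-miR396_R+1_1ss7GA, and gma-miR319c_1ss20TC to stu-miR319-3p_R-3_1ss14TC.

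The 82 pairs did not stand for 82 observations. Each of the 69 ESTs had 1 site, and 9 of those sites were listed under 2 to 4 names. Pairs of one guide sequence with the same raw reads, the same divided reads and the same score were taken as 1 read set, and there were 34 such sets, 19 of them with 2 or more ESTs. These 19 held 64 of the 82 pairs, and the largest set covered 8 ESTs. Raw reads summed to 5870 over the pairs and to 5787 over the 69 sites. The divided reads, in which a read counts as a fraction at each EST it matches, summed to 883 over the same sites.

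**Figure D1:**
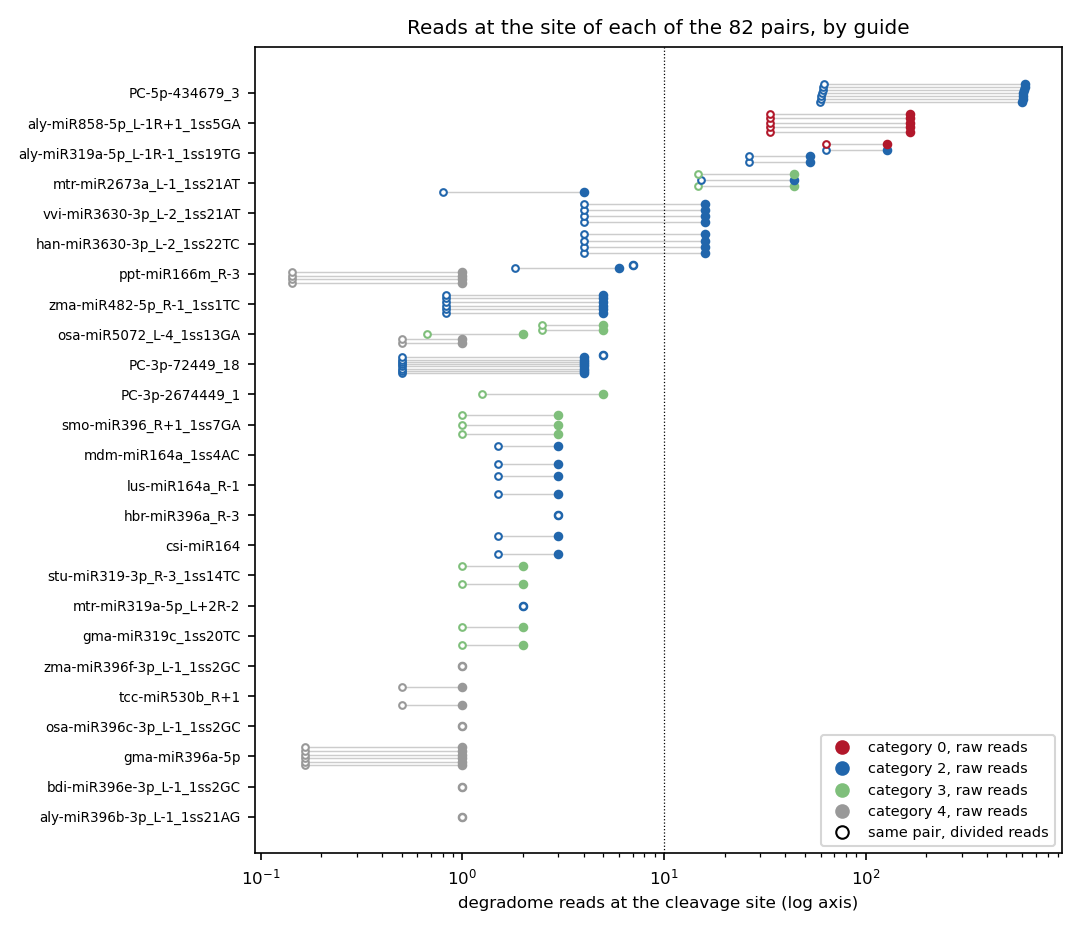
Raw reads (filled) and divided reads (open) at the cleavage site of each of the 82 pairs, on a log axis, with the 25 guide names in rows and the category in colour. The 27 pairs to the right of the dotted line at 10 raw reads belong to 6 names, and the median over all pairs was 4 raw reads.

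Raw over divided reads tells how many ESTs a read matched on average, and this divisor was whole, within 0.001, for 78 pairs. In 16 sets, with 56 pairs, it equalled the number of ESTs listed, the number that a division over the listed ESTs gives. In 10 sets, with 14 pairs, it was larger than the number of ESTs in the set. It was not whole in 3 sets with 4 pairs. In the remaining 5 sets the divisor was 1, and these 5 ESTs, with 1 to 7 raw reads, are the ones whose reads fell on a single EST.

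**Figure D2:**
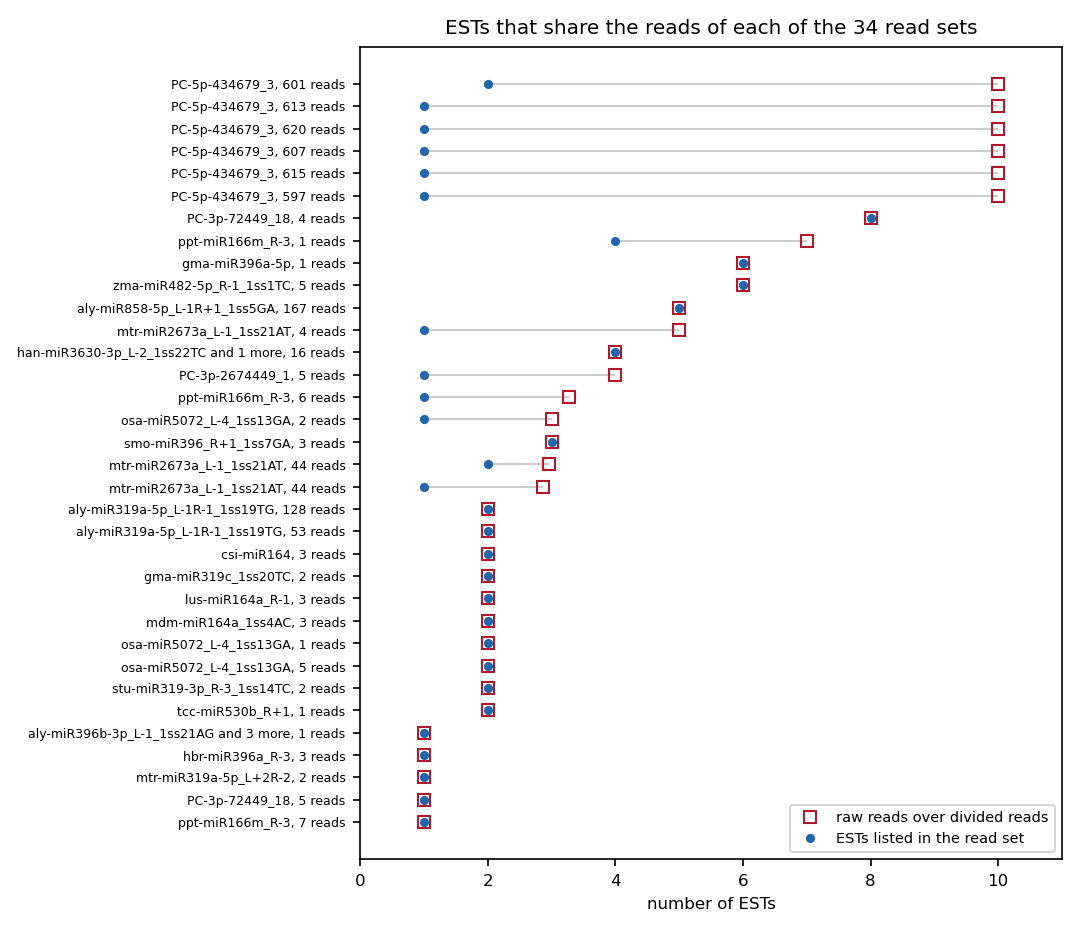
For each of the 34 read sets, the number of ESTs over which its reads were divided (red squares, raw over divided reads) and the number of ESTs listed (blue points). The squares and points coincide for miR858 at 5 and stand apart for PC-5p-434679_3 at 10 against 1 or 2.

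The ESTs with a single match were few in reads. The L9e ribosomal protein EST CV164383, assigned to ppt-miR166m_R-3, had 7 reads (interval 2.81 to 14.4). The EST CV164786 of PC-3p-72449_18 had 5 reads, and CV165709, a T-complex protein 1 subunit that helps fold proteins, had 3 reads for hbr-miR396a_R-3. CV170876 had 2 reads for mtr-miR319a-5p_L+2R-2, and CV166365 had 1 read for 4 miR396-3p names of one sequence. All pairs with at least 10 raw reads, 27 in number, had a divisor above 1.

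miR858 is known in Arabidopsis to cut transcripts of MYB transcription factors that control phenylpropanoid genes. Its 5 ESTs each had 167 raw reads (interval 143 to 194) and 33.4 divided reads, so 1 peak of 167 reads was listed 5 times. Of these, CV168132, CV169794, CV166827 and CV162912 are annotated as MYB proteins and CV171628 carries no annotation. CV171628 was in the same read set, with the same score of 3.5, category 0 and CleaveLand p-value of 0.0700. The sites lay at EST positions 355, 179, 175 and 176 in the annotated ESTs and at 66 in CV171628. Before the normalization given below, root had 146 small RNA reads of miR858, stem 38, leaf 36 and flower 28. With 248 in all (218 to 281), it was the one guide with at least 100 reads in both the small RNA libraries and the degradome.

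Calmodulin, the calcium sensor, was the annotation with the most ESTs outside MYB that reached 10 reads, with 6 of 6 from 3 read sets. Of these, 4 belonged to aly-miR319a-5p_L-1R-1_1ss19TG, which had 12 small RNA reads in root, 1 in stem and 0 in leaf and flower. CV168798 and CV170402 shared 128 reads (107 to 152), and CV169800 and CV171460 shared 53 reads (39.7 to 69.3), each divided by 2. The 128 reads made a category 0 site on CV170402, with a CleaveLand p-value of 0.119, and a category 2 site on CV168798, with a p-value of 0.9998. The site lay at position 69 of CV170402 and at position 327 of CV168798, 258 bases further into the EST. This was the 1 read set of 34 whose members differed in category, and the cause of the difference was not tested. The guide is named for the 5p arm of miR319, the arm opposite the one known to target TCP transcription factors. Of the 7 ESTs of the 4 miR319 names, only the 4 calmodulin ESTs are annotated, and none as a TCP factor.

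The other 2 calmodulin ESTs, CV167609 and CV162281, were listed for the repeat-like miR2673 guide. They had 44 reads (32.0 to 59.1) and 14.8 divided reads each, at category 3 and a CleaveLand p-value of 0.887. The unannotated CV163031 also had 44 reads, with 15.3 divided reads and category 2. By the definition of the categories, 44 reads did not exceed the median position of the 2 calmodulin ESTs. The last EST of this guide, CV171237, had 4 reads at a score of 4, and these were divided over 5 ESTs, and it was the one EST of its read set. This guide had 1 small RNA read, in root.

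PC-5p-434679_3, a predicted miRNA, held 73.5% of the raw reads over the 69 sites and 48.2% of the divided reads. Its 7 ESTs, none of them annotated, had 601 and 601 (CV167882 and CV170990), 613 (CV164364), 620 (CV168477), 607 (CV167856), 615 (CV167353) and 597 (CV167243) raw reads. The counts thus lay close together, and the interval of the lowest was 550 to 647. The counts can share reads, as the next values show, so this interval does not compare one EST with another. Raw over divided reads was 10 at every one, and 7 ESTs were listed. Because raw reads differed a little between the ESTs, these did not hold exactly the same reads, and the 7 pairs counted as 6 read sets. All were of category 2, so a higher peak lay elsewhere on each EST, and all had a score of 4 and a CleaveLand p-value of 0.9999. The guide itself had 4 small RNA reads (1.09 to 10.2), all from root.

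miR164 is known to cut transcripts of NAC transcription factors in organ boundaries and in root. There were 3 miR164 guides, and they are shown with the matching stretch of their targets because guide and target nearly coincide. Capitals in the guides are again the seed, and the capital in the last 2 lines is the base that differs.
csi-miR164: tGGAGAAGcagggcacgtgca
lus-miR164a_R-1: tGGAGAAGcagggcacgtgc
mdm-miR164a_1ss4AC: tGGCGAAGcagggcacatgcc
CV165125 and CV165450, strand given for the miRNA: tggagaagcagggcacCtgc
the complementary strand of the same stretch: gcaGgtgccctgcttctcca
The 3 guides pointed to the same 2 ESTs, CV165125 at position 219 and CV165450 at position 259, with the same 3 reads (0.619 to 8.77), divided over both. They differed in alignment score, with 1 for lus-miR164a_R-1, 2 for csi-miR164 and 4 for mdm-miR164a_1ss4AC. The 1 of lus-miR164a_R-1 was the best score in the table, and its CleaveLand p-value was 0.958. The p-values were 0.931 for csi-miR164 and 0.818 for mdm-miR164a_1ss4AC, so the guide with the most mismatches had the lowest of the 3.

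These 2 ESTs were also the 2 of the 69 targets that the miRNA table lists as a precursor, and the miRNA placed on them was lus-miR164a_R-1. The table takes the minus strand of both, positions 95 to 212 of CV165125 and 238 to 350 of CV165450. The 20 bases nearest to the guide on that strand carry the change G17C, counted from the 5′ end of the guide. Read on the other strand, as in the last line above, these 20 bases pair with the guide at every position but 17, and the alignment score of the guide on these ESTs was 1. The listed stretches of both ESTs shared 43 bases without a difference. The same 2 ESTs thus stand as precursors in one table and as targets in the other. EST lengths were not used here, so the positions of the 2 tables could not be put on one scale. Neither EST is annotated.

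The miR164 guides were unequal in depth. csi-miR164 had 10705 small RNA reads, rank 4 among the 241 sequences, and lus-miR164a_R-1 had 120. mdm-miR164a_1ss4AC had 2 reads, all from root. lus-miR164a_R-1 is csi-miR164 without its last base, and mdm-miR164a_1ss4AC differs from lus-miR164a_R-1 at C4A and A17G over 20 bases. The most abundant guide of the degradome thus rested on 3 reads.

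miR166 is known to cut transcripts of class III HD-ZIP transcription factors, which set leaf polarity and vascular pattern. Its abundant form was not among the guides. The listed guide, ppt-miR166m_R-3, is 18 nt long and is shown beside that form because they differ by 1 base.
ppt-miR166m_R-3: tCGGACCAggcatcattc
bdi-miR166a-3p: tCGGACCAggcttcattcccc
The difference is A12T, with the base of ppt-miR166m_R-3 first. ppt-miR166m_R-3 had 1 small RNA read, in flower, and the sequence of bdi-miR166a-3p had 1302434 reads over the 4 libraries. All 6 ESTs of this guide are annotated and none as an HD-ZIP factor, and all had a score of 4. S-adenosylmethionine synthetase makes the methyl donor of the cell. Its 4 ESTs, CV169578, CV166479, CV170703 and CV169834, shared 1 read that was divided over 7 ESTs. CV167555, an aquaporin of the vacuole membrane, had 6 reads and 1.83 divided reads. The 7 reads of the L9e EST CV164383 were the most for this guide.

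The 7 miR396 names held 4 sequences and 11 ESTs, and miR396 is known for GRF transcription factors of cell proliferation. Only 3 of these ESTs are annotated, and none as a GRF. The guides and the most abundant miR396 sequence follow, to show how little separates them.
gma-miR396a-5p: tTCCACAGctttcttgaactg
smo-miR396_R+1_1ss7GA: tTCCACAGctttcttgaacct
hbr-miR396a_R-3: cACAGCTTtcttgaactt
csi-miR396a_1ss21GT: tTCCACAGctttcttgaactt
csi-miR396a_1ss21GT had 9000 small RNA reads and no pair. gma-miR396a-5p differs from it at G21T and had 2981 reads, and smo-miR396_R+1_1ss7GA differs at C20T and had 1.58 reads. hbr-miR396a_R-3 matches it without a difference over 18 bases and had 1 read. gma-miR396a-5p was listed with 6 unannotated ESTs that shared 1 read, 0.167 divided reads each. smo-miR396_R+1_1ss7GA had 3 reads shared by 3 ESTs, and CV163968 and CV163465 of these are nucleolins, proteins of ribosome assembly. The 4 miR396-3p names, of the opposite arm, were aly-miR396b-3p_L-1_1ss21AG, bdi-miR396e-3p_L-1_1ss2GC, osa-miR396c-3p_L-1_1ss2GC and zma-miR396f-3p_L-1_1ss2GC. They share one sequence and had 1.05 small RNA reads between them and 1 degradome read.

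miR5072 was listed with 5 ESTs, of which 4 are annotated, all as enzymes of metabolism. Acetyl-CoA C-acetyltransferase, CV163924, makes acetoacetyl-CoA at the entry of the mevalonate pathway to terpenoids. It had 2 reads (0.242 to 7.22), divided over 3 ESTs, so 0.667 reads remained, and it was the one EST of its read set. The score was 3, the category 3 and the CleaveLand p-value 0.388, the lowest for this guide. The peroxidases CV169159 and CV169260, a class of enzymes that oxidize with hydrogen peroxide, shared 5 reads (1.62 to 11.7) at a CleaveLand p-value of 0.899. The carboxymethylenebutenolidase CV163155 and the unannotated CV168296 shared 1 read. The guide, shown because it bears on the terpenoid enzyme, was well sequenced, with 803 reads (748 to 861), of which root had 475, stem 145, leaf 33 and flower 150.
osa-miR5072_L-4_1ss13GA: tCCCCAGCagagtcgcca

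The remaining guides had few reads at their sites. zma-miR482-5p_R-1_1ss1TC, with 1 small RNA read, had 6 ESTs of elongation factor EF-1 alpha, which brings tRNA to the ribosome. These were CV163183, CV169022, CV169621, CV171444, CV170422 and CV167290, and they shared 5 reads, 0.833 divided reads each, at category 2. The 2 miR3630 names, of one sequence with 173 small RNA reads between them, had 16 reads (9.15 to 26.0) shared by the 4 unannotated ESTs CV168520, CV170710, CV168691 and CV162958. PC-3p-72449_18 had 29 small RNA reads. Its CV164786 had 5 reads with a divisor of 1, and its other 8 ESTs shared 4 reads. tcc-miR530b_R+1, with 1278 small RNA reads, had 1 read shared by 2 ESTs. The miR319-3p guides gma-miR319c_1ss20TC and stu-miR319-3p_R-3_1ss14TC shared CV167545 and CV171969 with the same 2 reads. PC-3p-2674449_1, with 1 small RNA read in stem, had 5 reads at CV166711 that were divided over 4 ESTs.

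By role, 29 of the 69 ESTs are annotated. The MYB and calmodulin groups were the ones in which any EST reached 10 raw reads, with 4 of 4 and 6 of 6. These ESTs share reads and came from 1 and 3 read sets. Over all 82 pairs, annotated or not, 27 reached 10 raw reads. The 7 ESTs of translation (EF-1 alpha and L9e) had 5 to 7 raw reads, and the 4 of S-adenosylmethionine synthetase had 1. The 4 annotated ESTs of metabolism had 1 to 5, and the nucleolins, T-complex protein and aquaporin, 4 ESTs together, had 3 to 6. A textbook target class was set beside 5 of the guide families only, and of these miR858 had 4 ESTs annotated to its class. For miR164, miR319, miR396 and miR166 this number was 0, of 0, 4, 3 and 6 annotated ESTs. They had 2, 7, 11 and 6 ESTs in all, and an EST without annotation could not be placed in a class. The annotated miR319 ESTs were all of a 5p guide, and those of the miR319-3p guides carry no annotation.

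The number of reads at the site and the number of reads of the guide were far apart for some names and close for others. At the best site and in the guide they were 620 and 4 for PC-5p-434679_3, and 3 and 10705 for csi-miR164. For gma-miR319c_1ss20TC they were 2 and 2.50. The libraries differ in kind and the degradome depth was not analysed, so these counts are not on one scale. Of the 25 names, 10 had at least 10 small RNA reads, 14 had fewer than 3 and 4 had less than 1. These 4 were the miR396-3p names, over which the reads of one sequence were divided. At least 3 reads were thus found for 11 of the guide names and at least 1 for 21. Of all 488 names in the miRNA table, 103 had at least 10 reads, 169 at least 3 and 270 at least 1. Taken by sequence, 9 of the 21 had at least 10 reads, or 42.9%, against 39.4% of all 241 sequences. The median was 2.50 reads per guide sequence and 5 per sequence of the table. Guides with fewer than 10 reads held 56.4% of the divided degradome reads over the 69 sites. Most of this was PC-5p-434679_3, which alone held 48.2% of all divided reads over these sites. At least 100 small RNA reads were found for 7 guide sequences, or 33.3%, against 15.8% of all sequences in the table. These 7 had 1 to 16 reads at their best site, apart from miR858 with 167. Of the 12 guide sequences with fewer than 10 reads, 4 lay within 1 mismatch of a sequence with at least 100 reads. The same share was not counted for the other sequences of the table, so whether it is unusual was not tested.

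**Figure D3:**
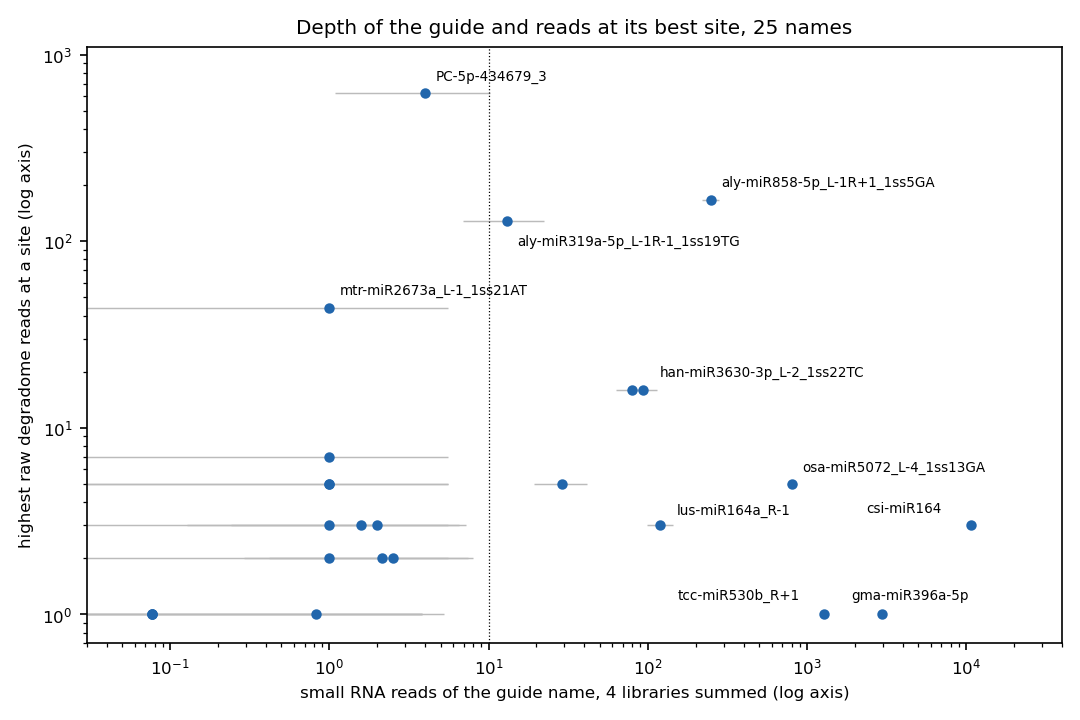
Highest raw degradome reads at a site against the small RNA reads of the guide, both on log axes, for the 25 names. Bars are exact 95% Poisson intervals, cut at the left edge, and the dotted line marks 10 reads. PC-5p-434679_3 stands at 4 small RNA reads and 620 site reads, and csi-miR164 at 10705 and 3.

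Most of the miRNA reads belonged to sequences without a pair. The 21 guide sequences held 1.02% of the small RNA reads, and the 220 sequences with no pair held 99.0%. A single sequence without a pair, that of bdi-miR166a-3p, had 1302434 reads, against 16369 in all guide sequences, so it weighs heavily in these shares. Of the 10 most abundant sequences 1 was a guide, csi-miR164, and of the 20 most abundant 3 were. Of the 38 sequences with at least 100 reads, 31 had no pair. The 4 libraries held 238148 to 499434 estimated reads in the miRNA table.

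The mixture could draw on any tissue, so the tissues in which the guides were read are given beside the sites. A normalized count is the reads times 1 factor per library. csi-miR164 reached 5223 normalized counts in root and 1267 in flower, with 175 in leaf and 122 in stem. lus-miR164a_R-1 reached 59.1 in root and 12.7 in flower, with 1.90 in leaf and 1.43 in stem. Both stood highest in root, with intervals apart from the other libraries. gma-miR396a-5p was highest in leaf with 1301 (interval 1206 to 1403) and had 674 in root. tcc-miR530b_R+1 was also highest in leaf, with 588 (524 to 657), and had 131 in root. osa-miR5072_L-4_1ss13GA had 260 in root (237 to 284) and 211 in flower (179 to 248), whose intervals overlap, and 104 in stem and 62.8 in leaf. aly-miR858-5p_L-1R+1_1ss5GA had 79.9 in root (67.5 to 94.0) and 68.5 in leaf (47.9 to 94.8), whose intervals overlap, and 39.4 in flower and 27.2 in stem. han-miR3630-3p_L-2_1ss22TC stood highest in flower with 62.0 (45.0 to 83.2). Reads in all 4 libraries were found for 8 of the 21 guide sequences, and 5 names had reads in root alone, with 1 to 4 reads each. The exact interval of a count of 0 reaches 3.69 reads, so absence from the other tissues was not detectable for these. With 1 library per tissue, a difference is one between libraries.

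**Figure D4:**
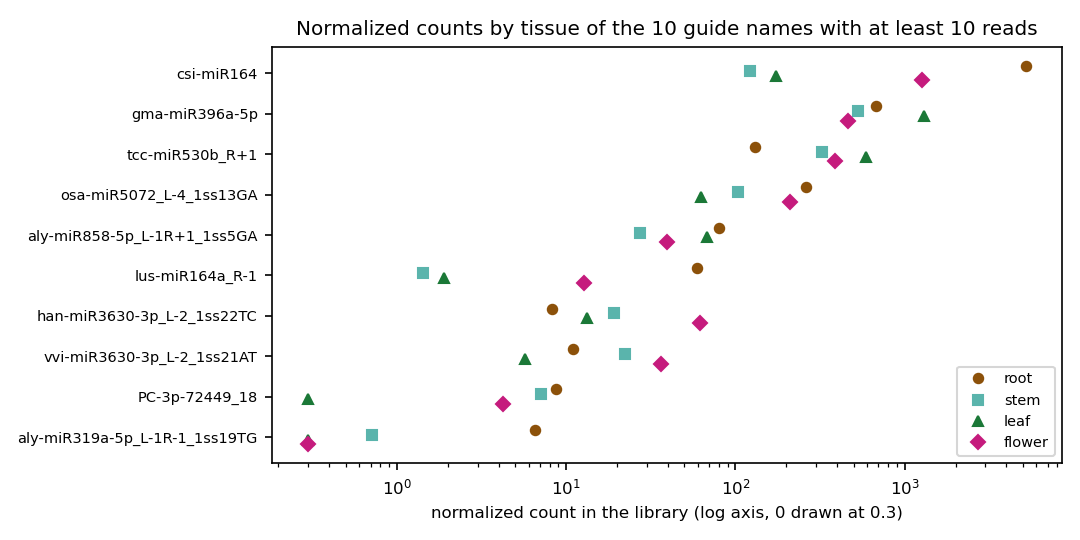
Normalized counts in root, stem, leaf and flower, on a log axis, of the 10 guide names with at least 10 small RNA reads, with a count of 0 drawn at 0.3. csi-miR164 spans 122 in stem to 5223 in root, and the 2 miR3630 names are highest in flower.

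Of the 82 pairs, 51 were of category 0 to 2, with 6 in category 0, none in category 1 and 45 in category 2. Category 3 had 13 pairs with 2 to 44 reads, and category 4 had 18 pairs. In category 2 the raw reads ran between 2 and 620, with a median of 5. The 6 pairs of category 0 were the 5 of miR858 and CV170402, and they came from 2 read sets. The score was 4, the highest in the table, for 54 pairs, and 4 pairs had a score of 2 or less, all of them of miR164.

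The CleaveLand p-value followed the guide, the category and the score. For each of the 28 combinations of these 3 in the table there was 1 p-value. In 3 combinations the raw reads differed between pairs while the p-value did not, as for aly-miR319a-5p_L-1R-1_1ss19TG with 53 and 128 reads at category 2. The p-value was under 0.5 for 13 pairs, under 0.05 for 0, and at least 0.9 for 45. These 13 were the 6 pairs of category 0, the acetyl-CoA C-acetyltransferase EST, and 6 pairs with 1 read. The single read of the miR396-3p names at CV166365 had a p-value of 0.285, below the 0.9999 of the 620 reads at CV168477.

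**Figure D5:**
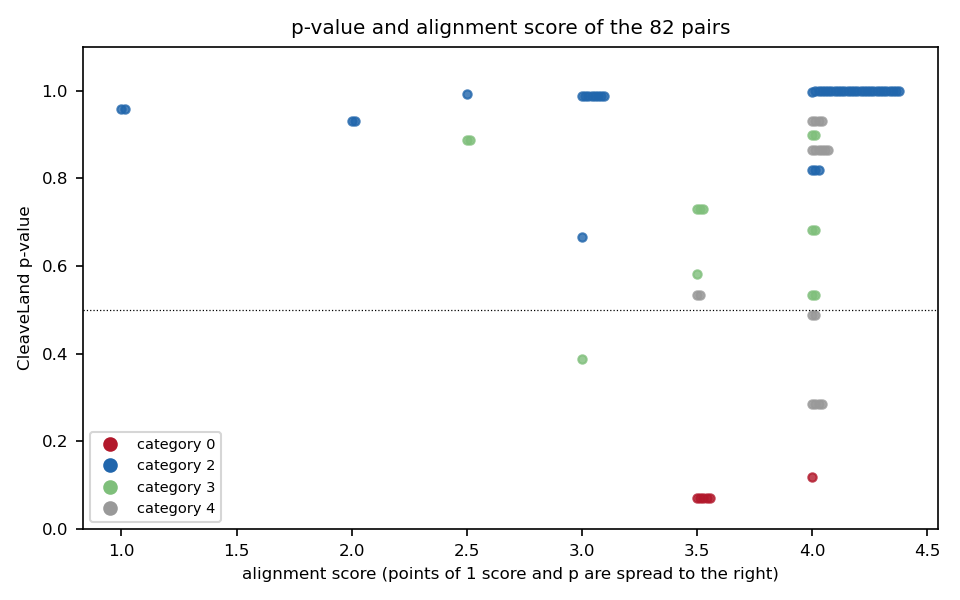
CleaveLand p-value against alignment score for the 82 pairs, with the category in colour and pairs of equal values spread to the right. The 6 category 0 pairs lie at 0.0700 and 0.119, and the miR164 pairs at scores 1 and 2 lie at 0.958 and 0.931. The dotted line marks 0.5.

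The cut faced base 10 of the guide, counted from its 5′ end by the end of the alignment, in 64 of the 82 pairs. CleaveLand looks for a site at this place of the alignment, so the number follows from the listing and is no test of guided cutting. All 30 pairs whose aligned stretch was as long as the guide were among them. In the other 52 pairs, with a stretch 1 base shorter or longer, 34 faced base 10, 12 faced base 11 and 6 faced base 9. Base 11 was faced in the 4 miR396-3p names and in the 8 ESTs of PC-3p-72449_18 that share 4 reads, and base 9 in the 4 S-adenosylmethionine synthetase ESTs and the 2 ESTs of miR530. All 18 of these have an extra or a missing base in the alignment, which shifts the count by 1 where it lies between the cut and the end. Where that base lies was not tested. Sites lay between EST positions 13 and 646, with 10 of the 69 within the first 100 bases.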

How the data were processed

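Small RNA of root, stem, leaf and flower was sequenced in 1 library each, and the degradome of the mixed tissues in 1 library. Per the labels, the small RNA reads were processed with ACGT101-miR 4.2 and the degradome with CleaveLand 3.0 and ACGT301-DGE 1.0. Reads of 18 to 25 nt were kept by the authors and matched to miRBase and to ESTs. In the deposited miRNA table the reads are estimated counts, divided over the entries a read matches, and normalized counts are a signal, scaled by the authors with 1 factor per library. The deposited degradome table holds raw reads as a count, divided reads as a signal, an alignment score, a position, a category and a p-value. That divided reads are raw reads over the number of ESTs matched was inferred from the ratio of both columns and is not stated. The total depth of the degradome was not analysed here.

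Pairs, read sets and closest sequences (compared without gaps, at an overlap of at least 16 bases) were computed in Python 3.11.15 with pandas 2.3.3, numpy 2.4.6, scipy 1.17.1 and networkx 3.6.1, and drawn with matplotlib 3.10.9. The grouping into read sets was run on simulated sets that each had their own guide sequence. It therefore could not test sets that share a guide or reads, as some do here. Entries of one name or one sequence were added up. The base facing the cut is the end of the aligned range minus the site plus 1, and 1 range that a spreadsheet had turned into a date was read back as its month and day. EST annotations are the names given in the study. No test was run, since no group has a replicate. All guides were named, and ESTs where they were of category 0, had at least 10 raw reads, were annotated or stood alone in a read set. Any other EST named was picked with its values known. The members and lists were chosen with earlier results of these data known. Alternatives covered the read minimums, the definition of a read set, what counts as 1 guide, and the category and p-value limits. In the miRNA table, 6 lines are not analysed here.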

Additional observations from a re-analysis of the deposited data

How the results depend on the processing

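Of 21 alternative settings for 7 results, 12 left the value within 1.5 times, or within its counting interval, and 9 moved it. The sum of raw reads, 5870 over all pairs, was 4174 with each read set once and 891 as divided reads over distinct targets and guide sequences. The 4174 still counts some reads more than once. Of it, 3653 came from the sets of PC-5p-434679_3, which can share reads, and sites listed under several guide sequences recur. The guides with at least 10 small RNA reads, 10 by name, were 6 at a minimum of 100 reads. The pairs that face base 10, 64 in all, were 30 among ranges as long as the guide. The 51 pairs of category 0 to 2 were 6 for categories 0 and 1 and 22 counted as read sets. The 13 pairs with a p-value under 0.5 were 5 under 0.1, 37 under 0.9 and 5 read sets. The pairs with at least 10 reads at the site stayed between 19 and 39 over their settings, and the read sets between 31 and 33. Counts were low at many sites: 18 of the 82 pairs had 1 read, whose interval is 0.0253 to 5.57. No paired analysis was possible because each group has 1 sample.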
